A study of Homo sapiens with 2 samples.

Results

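The AP-1 transcription factors were followed in MDA-MB-231 cells, a human triple-negative breast cancer line, with and without depletion of the RNA-binding protein RBMS1. The family was taken by name as 10 genes, namely FOS, FOSB, FOSL1, FOSL2, JUN, JUNB, JUND, BATF3, ATF2 and MAFF, out of 49627 genes with a listed transcript. The rule used names and no threshold on a value, but it was set with earlier results of these data known. All 10 reached a mean of 1 FPKM (sequenced fragments scaled by transcript length and by library size) over the libraries, as did 11186 genes in all. RNA was extracted with Trizol and sequenced in 1 library from cells carrying an RBMS1 shRNA in the pLKO.1 lentiviral vector and 1 library from cells carrying the control pLKO.1 vector. Both were puromycin-selected stable lines kept in L15 medium with serum, and which hairpin was used is not given in the sources used here. With 1 library per group there was no test of any difference, and the values below describe these libraries.

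AP-1 is a dimer of basic leucine zipper (bZIP) proteins. JUN proteins pair with each other or with FOS proteins, while FOS proteins need a JUN or ATF partner, and the pair grips a short palindromic DNA site through its basic regions. Several members are immediate early genes, transcribed within minutes of a growth factor or stress signal through mitogen-activated protein kinases, and their messenger RNAs are short-lived. In breast cancer of the triple-negative kind FOSL1, which encodes FRA-1, is known as a prominent member tied to invasion.

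What the 10 genes share is the basic region that contacts DNA. Part of its coding sequence, 27 bases or 9 codons, is shown for every member, though bZIP proteins outside the family have a basic region too. Each was read from GRCh38 with GENCODE 29 transcripts, 5′ to 3′ on the coding strand. The capitals mark the 7 bases that were the same in all 10 genes. Each stretch was found by a codon pattern of the basic region, which fixed most of these bases in advance, so their sameness is no result.
FOS (chr14:75280605-75280631, + strand): AAtaagatggctGCagccAaatGccGc
FOSB (chr19:45471239-45471265, + strand): AAtaaactagcaGCagctAaatGcaGg
FOSL1 (chr11:65894050-65894076, - strand): AAcaagctggctGCggccAagtGcaGg
FOSL2 (chr2:28408804-28408830, + strand): AAcaagctggctGCagccAagtGccGg
JUN (chr1:58782261-58782287, - strand): AAccgcatcgctGCctccAagtGccGa
JUNB (chr19:12792603-12792629, + strand): AAccggctggcgGCcaccAagtGccGg
JUND (chr19:18280627-18280653, - strand): AAccgcatcgccGCctccAagtGccGc
BATF3 (chr1:212696997-212697023, - strand): AAccgagttgctGCtcagAgaaGtcGg
ATF2 (chr2:175093136-175093162, - strand): AAtagagcagcaGCttcaAgatGccGa
MAFF (chr22:38214564-38214590, + strand): AAccgtggctacGCcgccAgctGccGc
FOSL1 and FOSL2 had 25 of 27 bases in common, as had JUN and JUND. FOS and BATF3 had 13 in common. How reads with several matches in the genome were treated is not given in the sources used here.

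The targeted gene came first as a check of the labels. RBMS1 stood at 3.76 FPKM after depletion against 24.1 FPKM in control, or 15.6% of control. Of the line's mesenchymal markers VIM (495.7 and 563.5 FPKM), AXL (251.2 and 228.8 FPKM), CAV1 (168.4 and 112.1 FPKM) and CD44 (153.9 and 204.2 FPKM) were high. EGFR was at 26.1 and 33.0 FPKM and ZEB1 at 13.3 and 10.9 FPKM, with SPARC low at 1.58 and 0.92 FPKM. ESR1, PGR, CDH1, PTPRC, PECAM1 and ALB were each at or below 0.132 FPKM. KRT8, KRT18 and KRT19, placed on the list of low epithelial markers, were at 69.6 to 189.8 FPKM. The files hold no read totals. Coverage per FPKM was 12.4 after depletion against 11.4 in control, so 1 FPKM stood for similar read depth in each. In bulk RNA, fewer cells expressing a gene and less RNA per cell cannot be told apart.

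Each level below is given on 1 of 2 scales. The gene sum adds the FPKM of a gene's annotated transcripts and of the transcripts that Cufflinks assembled with at least 1 of the gene's introns. It cannot take in assembled transcripts without introns, and JUN, JUNB and the main JUND transcript have no intron. The coding-base level is the FPKM of all transcripts on the gene's strand or without a given strand, averaged over its annotated coding bases. It so holds assembled transcripts without introns too. Intervals in brackets are Cufflinks' own within-library limits, added up over transcripts for a gene. They cover no difference between cultures. Ratios are log2 of (FPKM + 1) in knockdown over (FPKM + 1) in control, which understates the change of low genes.

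On the gene sum, 1 member was at least 2-fold lower after RBMS1 depletion (JUN) and 2 were past 2-fold higher (FOSB and JUND). FOSB was counted with its control listed at 0, so the size of its ratio depends on the added 1 FPKM. JUND was the 1 left among genes above 0 in both libraries. Of all 11186 genes, 2.8% were that much lower, 2.96% that much higher and 5.76% either. On the coding-base level 0 members passed 2-fold in either direction once 1 FPKM was added, against 4.31% of 11637 genes (2.11% lower and 2.2% higher), and without it FOSB was 2.01-fold higher. On both scales FOS, FOSB and JUND had positive ratios and the other 7 members negative ones. The median over the 10 was -0.22 on the gene sum and -0.13 on the coding-base level, beside 0.02 for all genes on each. The within-library intervals stood apart for 8 members on the gene sum, all but BATF3 and ATF2, where 24.7% of all genes did, and for 7 on the coding-base level (not JUNB, BATF3 or ATF2), where 34.3% did. Interval width depends on the level, and the members were not matched to other genes on level.

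**Figure D1:**
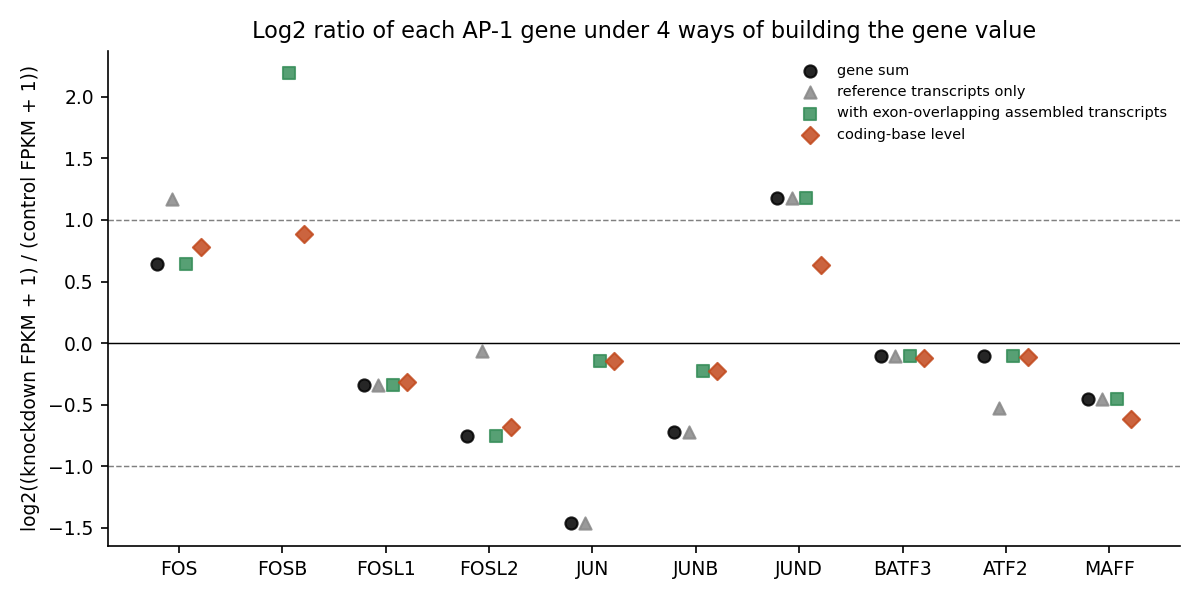
Log2 ratio of knockdown over control for each AP-1 member (pseudocount 1 FPKM) under 4 ways of building a gene's value (gene sum, annotated transcripts only, with exon-overlapping assembled transcripts, coding-base level), with dashed lines at 2-fold; FOSB has no point where its control is listed at 0. JUN and JUND lie past 2-fold on the gene sum and within it on the coding-base level.

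FOS (chr14:75278774-75282230, + strand) encodes the founding member of the family, which cannot form homodimers. Its coding-base level was 30.6 FPKM [28.6 to 32.6] after depletion and 17.4 FPKM [15.7 to 19.0] in control, a log2 ratio of 0.78. The intervals did not overlap. On the gene sum the values were 37.8 and 23.9 FPKM, a log2 ratio of 0.64. FOS was higher in the knockdown library under each of the 10 ways of computing its ratio from the transcript files, from 0.57 to 1.17. It was past 2-fold under 2 of them, from annotated transcripts only and from the dominant transcript.

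FOS transcript structure also differed between the libraries. The annotated, fully spliced FOS-201 was at 25.4 FPKM [23.9 to 26.9] after depletion and 10.8 FPKM [9.86 to 11.6] in control, which made 67.2% and 45.0% of the gene sum. The rest was assembled transcripts of 2 exons that kept introns, 1 of them at 12.4 FPKM after depletion and a pair at 6.92 and 6.22 FPKM in control. Averaged over the 1299 intronic bases of FOS-201, the level was 11.3 FPKM after depletion and 9.95 FPKM in control, a 1.13-fold difference, while over its exons it was 30.7 and 16.2 FPKM, a 1.89-fold difference. Intronic level was thus 36.8% of exonic level after depletion and 61.3% in control. Among 9759 protein-coding genes the median was 0.145% and 0.173%, and 1.55% and 1.52% of them reached 25%. FOS was thus among the few genes past 25% in both libraries. Whether polyadenylated RNA was selected is not given in the sources used here.

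FOSB (chr19:45467995-45475179, + strand) encodes a close relative of FOS and is also an immediate early gene. Its only annotated transcript above 0.5 FPKM, FOSB-206, was at 3.56 FPKM [3.20 to 3.92] after depletion and was listed at 0 in control, so no fold is given on the gene sum. The coding-base level was 10.8 FPKM [9.89 to 11.8] against 5.39 FPKM [5.04 to 5.74], 2.01-fold higher, or a log2 ratio of 0.89 once 1 FPKM was added to each. Over all exon bases of FOSB-206 the level was 6.45 against 5.39 FPKM, a 1.196-fold difference. Without introns, the assembled transcripts carried most of it. In control it was 1 unspliced transcript of 7767 bases across the whole locus at 5.39 FPKM, and after depletion a 926-base piece at 17.96 FPKM and a 4070-base piece at 6.65 FPKM beside FOSB-206. Level over the introns of FOSB-206 was 103.2% of that over its exons after depletion and 100% in control. FOSB lies within the span of ERCC1 on the other strand, and whether the libraries kept strand is not given in the sources used here, so reads of these genes may be mixed.

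**Figure D2:**
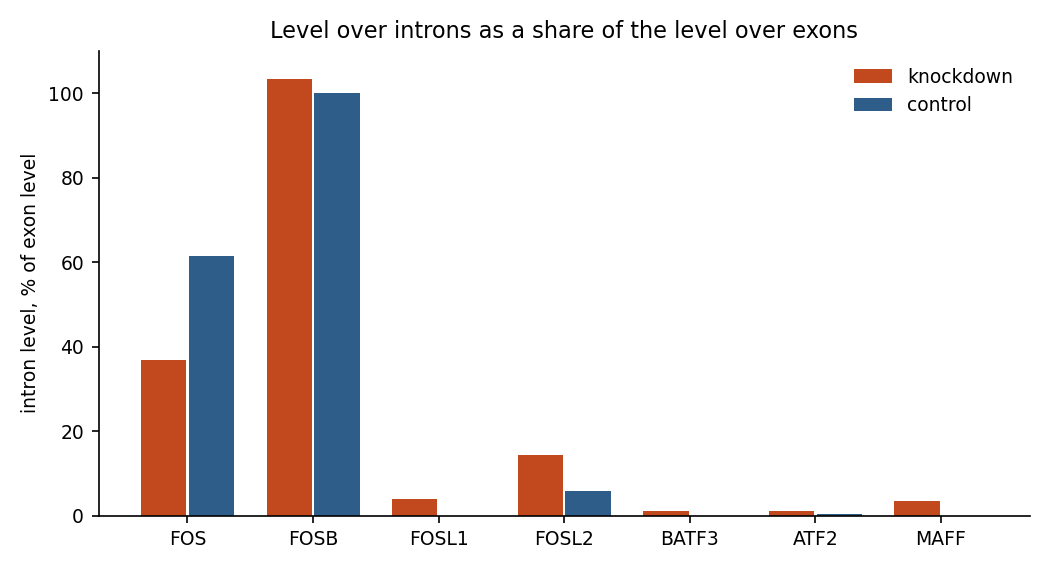
Level over introns as a percentage of the level over exons for the 7 AP-1 members with introns in their main transcript, in the knockdown and control libraries. FOSB stood at 103.2% and 100% and FOS at 36.8% and 61.3%, while FOSL1, BATF3, ATF2 and MAFF were at or below 3.995%.

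FOSL1 (chr11:65892049-65900573, - strand) was the highest member in both libraries. Its coding-base level was 148.2 FPKM [140.7 to 155.7] after depletion and 184.9 FPKM [175.7 to 194.1] in control, with intervals apart and a log2 ratio of -0.32. Both coding transcripts were lower. FOSL1-201 stood at 130 FPKM against 157 FPKM, and FOSL1-202, a shorter form with 2 exons, at 29.2 FPKM against 44.7 FPKM, or 18.3% and 22.2% of the gene sum. Over all 10 ways of computing it from those files the ratio was negative, from -0.37 to -0.27. In the knockdown library 3 further assembled fragments of 22.2 to 31.5 FPKM lay in FOSL1's span but were not assigned to it, and the control library had none.

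FOSL2 (chr2:28392448-28417312, + strand), which encodes FRA-2, was at 18.8 FPKM [17.9 to 19.8] after depletion and 30.8 FPKM [28.7 to 32.8] in control on the coding-base level, a log2 ratio of -0.68. The knockdown value was 61.2% of control and the intervals were apart. In the per-library transcript files the annotated FOSL2-201 was at 19.6 and 20.5 FPKM, and the control library held 2 further assembled coding transcripts of 8.33 and 4.93 FPKM that had no counterpart after depletion. The log2 ratio was accordingly -0.06 from annotated transcripts alone and -0.76 on the gene sum. An antisense gene, FLJ31356, overlaps FOSL2.

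JUN (chr1:58780788-58784327, - strand) encodes c-JUN, the main transactivating partner of the FOS proteins. JUN-201 was at 9.64 FPKM [8.86 to 10.4] after depletion and 28.3 FPKM [27.4 to 29.2] in control, a log2 ratio of -1.46. The knockdown library also held an assembled transcript of 3408 bases, chr1:58780920-58784327, that covers the same coding sequence. It was at 15.9 FPKM and made up 62.2% of the combined level. With it counted, JUN was at 25.5 FPKM [23.7 to 27.3] against 28.3 FPKM [27.4 to 29.2], 90.1% of control and a log2 ratio of -0.14, with the intervals barely apart. JUN was lower under all 10 ways of computing it, and past 2-fold under the 8 that leave out this assembled transcript.

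JUNB (chr19:12791496-12793315, + strand) encodes a JUN protein with weaker transactivation than c-JUN. JUNB-201 alone was at 6.03 FPKM [5.28 to 6.79] after depletion and 10.6 FPKM [9.58 to 11.6] in control, a log2 ratio of -0.72. An assembled transcript over the same exon stood at 7.45 and 5.33 FPKM. The coding-base levels were then 13.5 FPKM [11.9 to 15.1] and 15.9 FPKM [14.1 to 17.8], with overlapping intervals and a log2 ratio of -0.23. JUNB lies within the span of HOOK2 on the other strand.

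JUND (chr19:18279760-18281622, - strand) encodes the JUN protein that is usually present in resting cells. JUND-201 was at 19.8 FPKM [18.4 to 21.2] after depletion and 15.4 FPKM [14.2 to 16.7] in control. JUND-202, an annotated form of 500 bases inside the JUND-201 exon, was at 16.4 FPKM [13.2 to 19.6] after depletion and was listed at 0 in control, where a longer assembled transcript of 4076 bases stood at 1.95 FPKM. The gene sum of 36.2 against 15.4 FPKM gave a log2 ratio of 1.18. On the coding-base level, which weights JUND-202 by its length, the values were 27.5 FPKM [24.6 to 30.3] and 17.4 FPKM [15.9 to 18.9], 1.58-fold higher with intervals apart. JUND was higher under all 10 ways of computing it, from 0.34 to 1.22, and past 2-fold under 8.

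BATF3, ATF2 and MAFF are the more distant members. BATF3 (chr1:212686418-212699985, - strand), a small bZIP protein that pairs with JUN proteins and lacks a transactivation domain, was at 2.40 FPKM after depletion and 2.70 FPKM in control on the coding-base level, with overlapping intervals. ATF2 (chr2:175072250-175168382, - strand), a kinase-regulated partner of c-JUN, was at 11.8 and 12.8 FPKM, again with overlapping intervals and a log2 ratio of -0.11. Its make-up was not alike. ATF2-202 was at 9.01 and 9.53 FPKM, ATF2-201 was listed at 0 after depletion and at 3.91 FPKM in control, and an assembled form of 16 exons was at 3.40 FPKM after depletion and was not assembled in control.

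MAFF (chr22:38200767-38216511, + strand), a small MAF protein without a transactivation domain, was the 1 distant member with intervals apart. Its coding-base level was 8.02 FPKM [7.36 to 8.69] after depletion and 12.9 FPKM [11.9 to 13.8] in control, a log2 ratio of -0.62. On the gene sum the difference was -0.46, because MAFF-208, a retained-intron transcript in the region where PLA2G6 overlaps on the other strand, added 1.08 FPKM after depletion. MAFF was lower under all 10 ways of computing it from the transcript files.

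Ranked per length on the coding-base level, FOSL1 made up 49.9% of the summed level of the 10 members after depletion (297.1 FPKM) and 56.3% in control (328.4 FPKM). Below it the order differed between the libraries. After depletion FOS, JUND and JUN followed FOSL1, with overlapping intervals between FOS and JUND and between JUND and JUN. In control FOSL2 and JUN followed, with overlapping intervals, then JUND, FOS and JUNB, where each overlapped the next. FOS thus held place 5 in control and place 2 after depletion, and FOSL2 place 2 in control and place 5 after depletion. BATF3 was lowest in both, at 0.808% and 0.824% of the sum.

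The deposited comparison table gives FPKM on a scale of its own for 7236 transcripts, those that passed a limit on p in the submitters' comparison. It listed 12 transcripts of 6 members and none of JUN, JUNB, JUND or BATF3. FOS-201 stood there at 36.3 FPKM after depletion and 15.6 FPKM in control. FOS-208, another FOS transcript, stood at 8.62 and 2.95 FPKM. FOSB-206 was at 5.83 and 3.39 FPKM, so it was above 0 in both libraries on this scale. FOSL1-202 was at 33.1 and 55.1 FPKM, FOSL2-201 at 35.96 and 53.9 FPKM and MAFF-201 at 14.4 and 22.0 FPKM. For ATF2 the listed transcripts went both ways, with 1 at 0.924 and 3.30 FPKM and another at 1.74 and 0.377 FPKM. Since a transcript was listed only when it differed in that comparison, the listed values are no second measurement of the members.

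Promoters of the members are shown because most AP-1 genes carry sites for AP-1 and CREB/ATF proteins themselves. RefSeq (GRCh38.p14) windows of 300 bases, 250 before to 50 after the gene start, matched 7 of the 10 members, all but FOSL1, BATF3 and ATF2. Searched on both strands were TGAGTCA and TGANTCA (the AP-1 site), TGACGTCA (the CRE), TGACGT (the CRE's shorter part, which TGACGTCA holds on both strands), TGACATCA (a variant known from JUN) and a CArG box, the site of SRF. TGACGT was in 5 members, and in 7.98% of 35116 promoters. It began 64 bases before the RefSeq start of FOS, 60 before that of FOSB, 66 before FOSL2, 54 before MAFF and 200 before JUND. JUND held another match on the reverse strand 87 bases before its start. For FOS, JUN and MAFF the RefSeq start lies downstream of the start of FOS-201, JUN-201 and MAFF-201. The stretches shown for JUN and MAFF thus lie inside the gene spans given above. The capitals mark the match, 5′ to 3′ on the gene's strand.
FOS (chr14:75278752-75278781, + strand): tggttgagcccgTGACGTttacactcattc
FOSB (chr19:45467924-45467953, + strand): gcaaggggcgggTGACGTaagcaggggggc
FOSL2 (chr2:28392780-28392809, + strand): ggagtctggggtTGACGTgagtgaatccac
MAFF (chr22:38201929-38201958, + strand): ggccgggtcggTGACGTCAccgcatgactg
JUND (chr19:18281804-18281833, - strand): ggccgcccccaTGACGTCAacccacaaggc
JUN (chr1:58784096-58784125, - strand): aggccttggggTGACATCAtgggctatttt
The full CRE was in JUND and MAFF and in 1.85% of all promoters. TGACATCA was in JUN, 67 bases before its RefSeq start, and in 2.61% of promoters. TGAGTCA, found on the reverse strand just after the FOSL2 start, was in 4.95%, and TGANTCA, which covers it, in 7.71%. The CArG box searched was in 0.0342% and had no match in the windows of these 7 members, which do not reach as far upstream as the known SRF site of FOS. TGACGT was held by the 3 genes with positive ratios, FOS, FOSB and JUND, and by 2 of those with negative ratios, FOSL2 and MAFF, while the windows of JUN and JUNB did not hold it. A match of letters is not a binding site, and binding was not measured.

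Known targets of AP-1 were listed as 40 genes, of which 32 had a mean of at least 1 FPKM. The list was drawn up with earlier results of these data known, so its counts are no independent result about AP-1 targets. On the gene sum 10 of the 32 were at least 2-fold lower after RBMS1 depletion and 0 were at least 2-fold higher, beside 2.8% and 2.96% of all genes. The median was -0.32 on both scales, and 23 of the 32 had a negative ratio. MMP1, an interstitial collagenase and classic AP-1 target, was furthest down at 2.59 FPKM against 54.4 FPKM, a log2 ratio of -3.95. Interleukins and the chemokine CXCL8 made up 6 of the 10. CXCL8 was at 4.19 and 28.2 FPKM (-2.49), IL24 at 1.43 and 10.6 FPKM (-2.25), IL1B at 0.57 and 5.97 FPKM (-2.15), IL1A at 0.873 and 6.90 FPKM (-2.08), IL11 at 5.18 and 20.4 FPKM (-1.79) and IL6 at 5.54 and 19.0 FPKM (-1.61). VEGFA, which encodes an angiogenic growth factor, was at 13.8 and 30 FPKM (-1.07). With a pseudocount of 5 FPKM 8 of the 10 stayed past 2-fold, and VEGFA and IL1B did not. EDN1, which encodes endothelin-1, had the largest positive ratio, 5.82 against 2.67 FPKM (0.89). Whether any AP-1 protein acts on these genes in these cells was not tested.

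**Figure D3:**
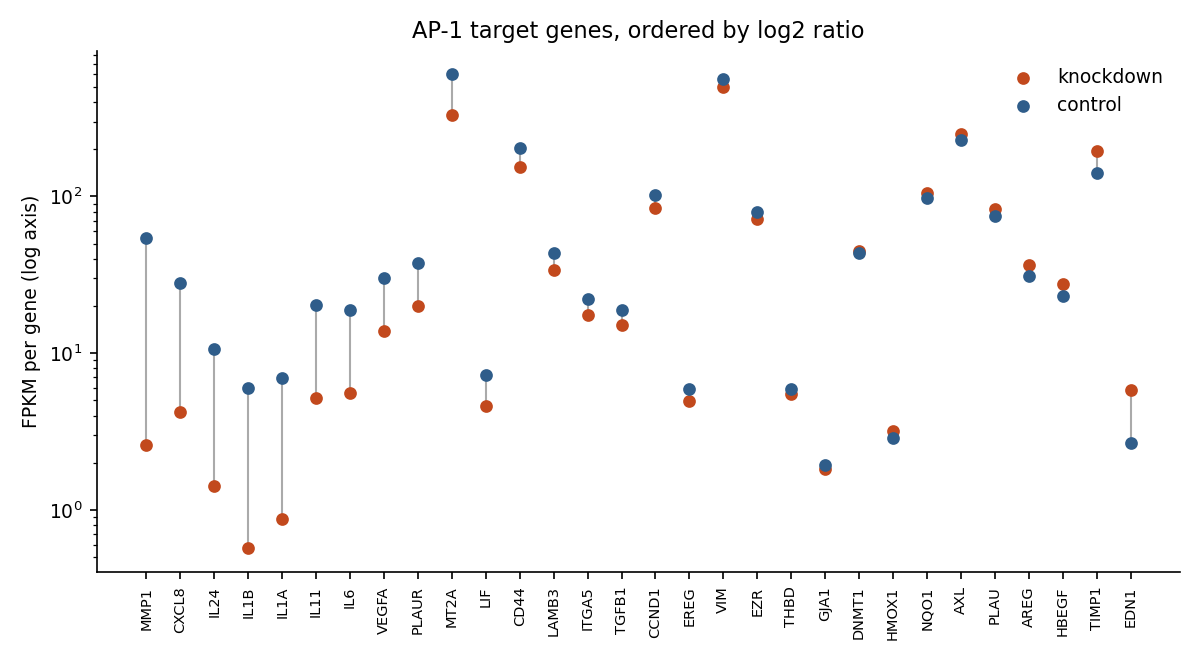
FPKM (log axis) in the knockdown and control libraries of 30 of the 32 AP-1 target genes with a mean of at least 1 FPKM, ordered by log2 ratio, with a grey line joining the libraries. MMP1, at the left, stood at 2.59 FPKM after depletion and 54.4 FPKM in control, and EDN1, at the right, at 5.82 and 2.67 FPKM.

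Other bZIP genes, which pair with or resemble AP-1 proteins, were listed as 28. Of these, 17 had a mean of at least 1 FPKM and 0 passed 2-fold in either direction on the gene sum, near the 5.76% of all genes that did, and the median was -0.14. The lowest ratio was that of CEBPB, an inflammatory bZIP factor, at 7.75 against 14.3 FPKM (-0.81), and the highest that of ATF6, a sensor of endoplasmic reticulum stress, at 15.7 against 10.3 FPKM (0.56, but -0.35 from annotated transcripts alone). On the coding-base level, where 4.31% of all genes passed 2-fold, 1 of 18 did, DDIT3, listed at 0 after depletion and at 15.9 FPKM in control. Its gene sum was listed at 0 in both libraries, so that level came from other transcripts over its coding bases.

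Immediate early genes outside the family were compared because FOS and FOSB are regulated alongside them. Of 30, 22 had a mean of at least 1 FPKM and 0 passed 2-fold in either direction on the gene sum, near the 5.76% of all genes, with a median of -0.04, and 12 ratios were negative and 10 positive. KLF10, a TGF-beta-induced zinc finger factor, had the lowest ratio, 7.58 against 11.9 FPKM (-0.59). CTGF, a matricellular growth factor, had the highest, 77.7 against 42.7 FPKM (0.85).

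Kinases and other factors that act on AP-1 genes or proteins were listed as 37 genes, of which 35 were found by symbol and 31 had a mean of at least 1 FPKM. On the gene sum 1 of the 31 was past 2-fold lower and 1 past 2-fold higher, near the 5.76% of all genes. ELK1, an ETS factor that acts with SRF at the FOS promoter, was at 2.28 against 6.99 FPKM (-1.29), but its log2 ratio was -0.44 on the coding-base level. UBE2N, a ubiquitin-conjugating enzyme of innate immune signalling, was at 40.4 against 15.2 FPKM (1.35, and 1.16 on the coding-base level). The median was -0.04.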

How the data were processed

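RNA-seq was available for 1 RBMS1 knockdown and 1 control library of MDA-MB-231 cells, grouped by the labels. The authors deposited a Cufflinks transcript file per library, with FPKM and within-library limits for each transcript, and a comparison table with FPKM per library. The table's fold changes, p-values and q-values were not used. The submitters' processing notes name Bowtie2 2.0.6, TopHat2 2.0.9, Cufflinks 2.1.1 and Cuffdiff 2.1.1. Build, annotation, strand and read totals are not given in the sources used here. Transcript starts matched GENCODE 29 on GRCh38 for 98.1% of annotated transcripts, so that annotation was used.

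FPKM was summed by gene over annotated transcripts and assembled ones sharing an intron (6507 and 6583 in the knockdown and control libraries). The coding-base level was added after seeing the data, since JUN, JUNB and FOSB have transcripts without introns. A gene was tallied at a mean of at least 1 FPKM and called past 2-fold on log2(FPKM + 1). No test was made, with 1 library per group. Scripts ran in Python 3.11.15 with numpy 2.4.6.

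The members and lists were chosen with earlier results of these data known. Named were all members with their transcripts at 0.5 FPKM or more, and of each list the genes past 2-fold (up to 8) and the largest decrease and increase. VEGFA, DDIT3, MAPK8, MAPK9, ITCH, IER5 and EZR were named after their values were seen. Some list genes are counted but not reported here by name. Pseudocounts, scalings, ways of building the gene value and filters were varied.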

Additional observations from a re-analysis of the deposited data

How the results depend on the processing

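No paired analysis was possible because neither group has more than 1 library. Over 12 alternatives, 126 counts and medians kept their value within 1.5 times or within the members' limits, 30 moved and 0 reversed. Of the single-member ratios, 77 stayed within the limits from the Cufflinks intervals and 19 moved. The count of members at least 2-fold lower, 1 at first, was 0 with assembled transcripts that overlap exons and 0 on the coding-base level. The count of members at least 2-fold higher, 2 at first, was 1 with a pseudocount of 5 FPKM, 1 at a mean of at least 5 FPKM, 1 among genes above 0 in both libraries and 0 on the coding-base level. It was 3 from annotated transcripts only, where FOS passed as well. Of the bZIP partners, 1 was lower (DDIT3, coding-base level). Of the targets, 1 was higher with a pseudocount of 0.1 FPKM (EDN1), 1 on TPM (EDN1) and 1 from the dominant transcript (EZR). Of the immediate early genes, 1 was higher with assembled transcripts that overlap exons (IER5). Of the kinases and upstream factors, 1 lower became 0 with a pseudocount of 5 FPKM, from the dominant transcript, at a mean of at least 5 FPKM and on the coding-base level, and 2 from annotated transcripts only (ELK1 and MAPK8), where 2 were higher (UBE2N and ITCH), and 3 were higher from the dominant transcript (UBE2N, ITCH and MAPK9). Of all genes, 313 lower and 331 higher became 133 and 124 with a pseudocount of 5 FPKM, 671 and 662 on TPM, 507 and 553 from annotated transcripts only, 477 and 500 from the dominant transcript, 138 and 140 at a mean of at least 5 FPKM, and 171 and 169 among genes above 0 in both libraries. Other than where the way of building or filtering the value sets which transcripts or genes are counted, the cause was not tested. Under the 3 library scalings the knockdown library stood at 1.022, 1.017 and 1.022 times the control. A low gene such as BATF3 has wide intervals for its level, and differences between cultures cannot be seen with 1 library each.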

Other observations

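For some immediate early genes the gene sum and the coding-base level differed widely. CYR61, a matricellular early gene, was listed at 0 on the gene sum in both libraries and stood at 246.1 FPKM after depletion and 308.6 FPKM in control on the coding-base level. IER5 was at 11.8 and 17.1 FPKM on the gene sum (log2 ratio -0.50) and at 32.5 and 18.9 FPKM on the coding-base level (0.75). Level over introns was a larger share after depletion for FOSL2, at 14.4% of the exonic level against 5.87% in control. It was 3.995% for FOSL1, 3.39% for MAFF and 1.07% for BATF3 after depletion, and 0 for these 3 in control. ATF2 was at 1.06% and 0.48%, FOSB at 103.2% and 100%, and FOS went the other way, at 36.8% after depletion and 61.3% in control.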
